A study of Anser cygnoides with 6 samples.

Results

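Long noncoding RNAs (lncRNAs) that lie on the same strand as a known gene and overlap its exons, without sharing a splice junction with it, were examined in Shitou goose myoblasts. In the lncRNA table of the study these transcripts carry class code o, a code that records how an assembled transcript sits against the annotation, and every transcript with that code was taken. They were 251 of 14993 lncRNA transcripts. The other transcripts were 1332 that share a junction with a gene (class j), 478 that overlap exons on the opposite strand (class x), 5394 inside introns (class i) and 7538 between genes (class u).

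RNA was measured in 3 cultures of the differentiation stage (DM) and 3 of the proliferation stage (GM), with 1 library for each culture. All 6 cultures were wild-type primary myoblasts, the precursor cells of muscle fibers, from the leg muscle of Shitou goose (Anser cygnoides) embryos incubated for 15 days. The methods describe cells of several embryos mixed and then divided, while another passage of the study speaks of separate geese, so p-values measure the spread between these cultures, which may come from 1 pool. GM cells grew in medium with 15% fetal bovine serum, and DM cells were kept in 2% horse serum for 2 to 4 days according to the labels. Low serum is used because myoblasts then leave the cell cycle and fuse into myotubes. The values are FPKM (fragments scaled by transcript length and by the number of mapped fragments), in which 0.0001 stands for 0, and no read counts were used here, so the number of reads behind a value was not known and no counting error is given.

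A lncRNA of this kind shares sequence and strand with the messenger RNA of its gene. In general such transcripts can be separate RNAs with their own start or end, or alternatively ended or misassembled pieces of the gene's own RNA, and short reads that fall in the shared exons fit both. lncRNAs that overlap or neighbour a gene are known to act on it in some cases, and several lncRNAs are known to take part in myoblast differentiation in other species. The comparison asked of each transcript is therefore whether its change between DM and GM is that of its gene.

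The 7 of 10 listed markers of the skeletal muscle lineage that were in the gene table were detected in both stages. Their summed level was 645 to 671 FPKM in DM and 844 to 946 FPKM in GM, and most of it was ACTC1. MYF5 had 0.451 to 0.820 FPKM in DM and 6.53 to 6.75 FPKM in GM. PAX7 had 2.81 to 2.97 FPKM in DM and 9.75 to 10.8 FPKM in GM. MYOD1, the myogenic determination factor, had 26.6 to 28.1 FPKM in DM and 61.7 to 70.9 FPKM in GM, and MYOG, which acts in the onset of differentiation, had 15.4 to 21.3 FPKM in DM and 24.4 to 29.0 FPKM in GM. The sarcomeric actin ACTC1 had 569.8 to 586 FPKM in DM and 718 to 818 FPKM in GM, and TNNT2, a troponin, overlapped between stages. MEF2C, a factor of later differentiation, was the only one of the 7 with all DM values above the GM values, at 23.0 to 24.0 FPKM in DM and 15.5 to 16.2 FPKM in GM. Of 12 fibroblast and connective tissue markers, 11 were in the table, with a sum of 4313 to 4585 FPKM in DM and 2059 to 2102 FPKM in GM. These sums moved with the stage, their part in the results below was not tested, and in bulk RNA fewer cells of a type and less RNA per cell cannot be told apart.

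The class o transcripts named 201 annotated genes and came from 204 assembled loci on 143 scaffolds, with 128 on the plus and 123 on the minus strand. Of the named genes, 162 were found in a RefSeq gene list of another goose assembly, 143 as protein coding and 19 as lncRNA genes. The transcripts had a median length of 1521 bases, between 210 and 15779, while the median over all lncRNA transcripts was 576 bases. Of the 251, 206 had 2 exons, 31 had 3 exons and the most exons in a transcript was 7. None had 1 exon (0 of 251), whereas 74.5% of all lncRNA transcripts had a single exon. The median distance between the first and last base on the scaffold was 6541 bases and the widest was 497041 bases.

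The gene of 181 class o transcripts (152 genes) had 1 row in the gene table, and for the other 70 the comparison with the gene was not made here. In 115 of the 181 pairs the transcript and the gene carried the same assembled locus ID, and in 66 pairs they did not. In Ballgown the level of a gene is built from the transcripts of its locus, so with the same ID the value of the gene was taken to draw on the lncRNA as well. The methods do not state how gene values were formed. This is therefore an inference, here and in the statements below that rest on it. In none of these 115 pairs was the gene listed at 0 in a library where its lncRNA was above 0, against 6 of the 66 pairs with different IDs. The ratio of gene to lncRNA stayed within 1.1 times over all 6 libraries in 4 of the 68 same-locus pairs with both above 0 throughout, namely GPHB5, CXCR5, MKNK2 and GAREML, against 0 of 57 such pairs with different IDs. For GNG5, a G protein gamma subunit, the transcript MSTRG.8485.1 had 22.3, 9.55 and 33.1 FPKM in DM and 27.4, 29.4 and 16.4 FPKM in GM, and the gene had the same values except for 25.6 FPKM in GM3. The highest ratio of gene to lncRNA in a library was a median of 2.42 times the lowest in the 68 same-locus pairs. In the 57 pairs with different IDs it was 3.06 times. For pairs with the same ID the change of the transcript is not independent of the change of the gene.

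Transcripts of the 2 kinds of pair also differed in form. Those with a locus ID of their own spanned a median of 37602 bases with a median length of 944 bases, whereas those at the gene's locus spanned 3897 bases with a length of 2009 bases. The 26 transcripts that spanned over 100000 bases had a median length of 604.5 bases, and 22 of them had a locus ID other than that of their gene, 4 had a gene outside the table and 0 shared the ID. Of the transcripts with a different ID, 93.9% were above 0 in all 6 libraries, and of those with the same ID 59.1%. These are descriptions of the assembly, and no test was made of them.

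Class o transcripts were mostly expressed at a low level. Their median mean level was 1.37 FPKM, and that of all lncRNA transcripts was 0.942 FPKM. A mean of 10 FPKM or more was reached by 16 transcripts. The mean level of the lncRNA was above that of its gene in 38 of the 181 pairs, 19 with the same and 19 with a different locus ID, and the median ratio of the lncRNA to the gene was 0.378.

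**Figure D1:**
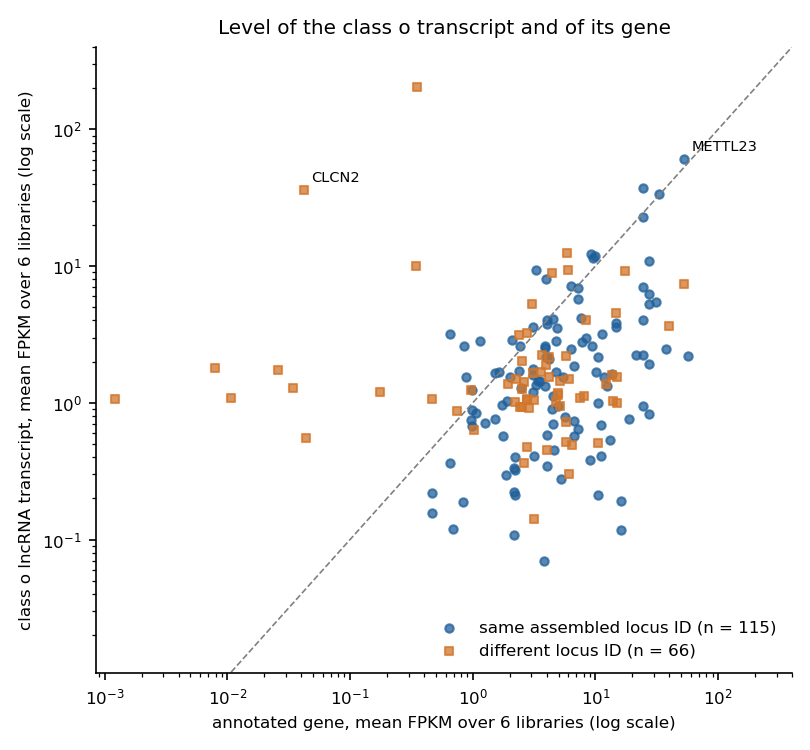
Mean FPKM over 6 libraries of each class o lncRNA transcript (vertical, log scale) against that of its gene (horizontal, log scale), with circles for pairs that share an assembled locus ID and squares for pairs that do not. Points above the dashed line of equal level are the 38 pairs with the lncRNA above the gene, among them CLCN2, whose gene was under 1 FPKM.

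CLCN2 encodes a chloride channel. Its class o transcript MSTRG.5962.1, 304 bases in 2 exons across 375010 bases, had 216 FPKM in DM2 and was listed at 0 in the other 5 libraries, so its high mean came from 1 library. The transcript MSTRG.2049.1 at LOC106045148, a histone H2A gene, had 45.3, 7.95 and 42.0 FPKM in DM and 32.0, 37.2 and 37.2 FPKM in GM, with DM2 far below the rest. Its gene had 43.6, 10.3 and 40.2 FPKM in DM and 30.7, 35.7 and 35.8 FPKM in GM, with the same low library. DM2 was the lowest DM library also for GNG5 above and for SMPD2, a sphingomyelinase gene, whose transcript had 9.98, 4.65 and 12.5 FPKM in DM and 8.02, 6.61 and 6.64 FPKM in GM. These examples were picked after the values were seen. Over all lncRNA transcripts, log2 levels of DM2 correlated with DM1 by 0.750 and with DM3 by 0.770, against 0.712 between DM1 and DM3.

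Values of a transcript often differed between cultures of 1 stage. A level of 0 in a library and of at least 1 FPKM in another library of the same stage was seen in 48 class o transcripts (19.1%), against 10.8% of all lncRNA transcripts. In all, 25 transcripts (9.96%), 19 of them among these 48, were above 0 in 1 library only, against 2.01% of all lncRNA transcripts. They were spread over the 6 libraries, with 3 to 5 in each. Over all lncRNA transcripts, log2 levels of libraries correlated by 0.712 to 0.770 within a stage and by 0.626 to 0.676 across stages. Over genes with such a mean it was 0.965 to 0.974 within a stage and 0.929 to 0.936 across stages. These correlations are across transcripts or genes, which are not independent replicates.

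The stages were compared in limma on the log2(FPKM + 1) values of every lncRNA transcript whose mean was 0.5 FPKM or more, and the Benjamini-Hochberg adjustment ran over all of these. Log2 fold changes are DM over GM, and a DE-lncRNA needed one past 1 or past -1 as well as an adjusted p-value below 0.05. Of the 251 class o transcripts, 211 passed the filter and 40 did not, and 41 of the 211 passed it through 1 stage while the mean of the other stage was below it. DE-lncRNAs of class o numbered 7 (3.32% of 211), 5 higher and 2 lower in DM, and 4 of the 7 were among those that passed the filter through the stage in which they were high. Over all 12988 lncRNA transcripts tested 2.01% were called, 0.562% higher and 1.45% lower. The median log2 fold change was -0.24 over class o and -0.22 over all transcripts tested, with 136 class o transcripts below 0 and 75 above. The median FPKM of the class o transcripts in a library was 1.02 to 1.25 in DM and 1.37 to 1.68 in GM. After each library was scaled to the same median, the median change was 0.03 over class o and 0.00 over all transcripts, and 6 class o transcripts were called, 6 higher and 0 lower, with RAP1B among them and METTL23 and LOC106049866 not. Under that scaling 1.37% of all transcripts were called higher and 0.554% lower. The DM values were all above the GM values in 20 of the 211 (9.48%, against 7.3% of all tested) and all below them in 50 (23.7%, against 25%).

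The smallest p-value was that of MSTRG.761.1 at MXD4, which encodes a partner of MAX that represses targets of MYC and is known from other vertebrates to rise when cells stop dividing. This transcript of 2573 bases at NW_013185655.1:4222774-4226540, minus strand (coordinates in the scaffolds of the assembly the authors used, named GooseV1.0 in the methods), had 19.1, 17.6 and 17.1 FPKM in DM and 6.24, 6.45 and 7.09 FPKM in GM. All DM values were above all GM values, and the DM mean was 2.72 times the GM mean. The log2 fold change was 1.32 ± 0.14 (SE, n = 3 each, limma adjusted p = 0.00532). The MXD4 gene, with the same locus ID, had 14.2, 13.9 and 13.3 FPKM in DM and 3.12, 5.05 and 5.28 FPKM in GM, a log2 fold change of 1.46 ± 0.17 (adjusted p = 0.002). It was a DEG, the name used here for a called gene.

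MKNK2 encodes a kinase that acts below MAP kinases on a translation initiation factor. Its transcript MSTRG.23902.1 (2454 bases, NW_013185857.1:1322825-1326132, minus strand) had 17.3, 15.2 and 16.2 FPKM in DM and 7.46, 7.04 and 7.98 FPKM in GM. The groups did not overlap, and the log2 fold change was 1.02 ± 0.14 (adjusted p = 0.0137 in limma). The MKNK2 gene had 14.5, 12.9 and 13.6 FPKM in DM and 5.89, 5.59 and 6.44 FPKM in GM, and its change was 1.08 ± 0.08 (adjusted p = 0.00049). Gene and transcript share the locus ID, so the value of the gene draws on the transcript and the 2 changes are not separate measurements. Their ratio was 0.790 to 0.851 in all libraries.

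MRPL17 encodes a protein of the large subunit of the mitochondrial ribosome. Its class o transcript MSTRG.11513.2 (1564 bases, NW_013185700.1:5400619-5402248, plus strand) had 3.41, 1.13 and 4.72 FPKM in DM and was listed at 0 in all 3 GM libraries. On the log2(FPKM + 1) scale it was higher by 1.92 ± 0.34 (limma adjusted p = 0.0281), a size that depends on the 1 added (4.78 with 0.1 added). The MRPL17 gene, with the same locus ID, had 13.3, 15.1 and 16.9 FPKM in DM and 8.51, 8.66 and 7.86 FPKM in GM. Its change of 0.78 ± 0.10 had an adjusted p of 0.00278 but was under the fold limit. The transcript was above 0 in DM libraries only, while its gene was measured in all 6.

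METTL23, a gene known in mammals to encode a histone arginine methyltransferase, had the only class o DE-lncRNA above 20 FPKM in every library. MSTRG.9490.1 (1480 bases, NW_013185685.1:6782858-6787040, plus strand) had 23.8, 29.5 and 27.7 FPKM in DM and 48.1, 118 and 117 FPKM in GM. GM1 was far below the other GM libraries and still above all DM libraries. The log2 fold change was -1.66 ± 0.34 (limma adjusted p = 0.0427), and -1.24 with an adjusted p of 0.195 after scaling to the same median. The METTL23 gene was steadier, with 34.9, 36.9 and 41.2 FPKM in DM and 69.1, 67.9 and 67.2 FPKM in GM. Its change of -0.84 ± 0.07 (limma adjusted p = 0.00086) was under the fold limit. The gene has the same locus ID, so its value draws on the transcript as well.

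The other 3 DE-lncRNAs were at a low level, and no change of their gene was tested. MSTRG.28449.1 at LOC106049108, annotated as a keratin-associated protein gene, had 2.04, 1.81 and 2.14 FPKM in DM and 0.337, 0.378 and 0.438 FPKM in GM, with no overlap (log2 fold change 1.11 ± 0.15, adjusted p = 0.0137). The gene, at another locus ID, was below the filter with at most 0.471 FPKM in DM and at most 0.0705 FPKM in GM. MSTRG.18317.1 at LOC106041719, a lncRNA gene in RefSeq, had 1.14, 1.44 and 1.67 FPKM in DM, while in GM it had 0.332 FPKM in GM2 and was listed at 0 in GM1 and GM3 (1.13 ± 0.23, adjusted p = 0.0423). With 0.1 in place of 1 added, its change was 3.21 and not called (adjusted p = 0.07), while COL4A2 below was. MSTRG.29352.1 at LOC106049866, annotated as a gamma protocadherin, had 0.410, 0.331 and 0.256 FPKM in DM and 2.22, 1.27 and 1.87 FPKM in GM (-1.05 ± 0.19, adjusted p = 0.0295). Scaled to the same median, that last change was -0.87 and under the fold limit. LOC106049866 had 2 class o transcripts, at different locus IDs. Their sum was 1.35 FPKM in DM1 and 1.27 FPKM in GM2, so the sums overlapped between stages.

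**Figure D2:**
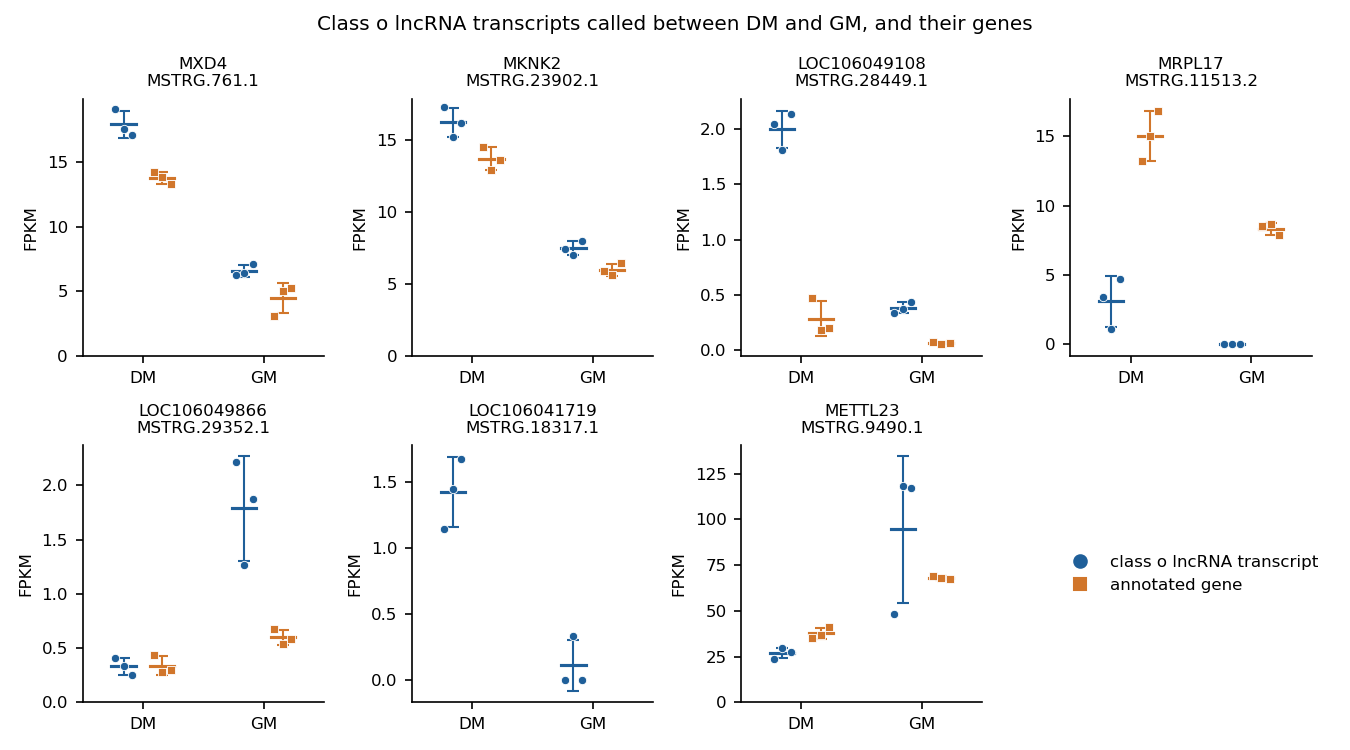
FPKM of the 7 class o DE-lncRNAs (circles) and of their genes (squares) in the DM and GM libraries, 1 point per library, with lines for the mean and bars for the SD of 3 libraries. The DM values of MXD4 and MKNK2 lie above the GM values for transcript and gene alike, MRPL17 has its lncRNA at 0 in GM only, and LOC106041719 has no gene row.

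These calls rested on few libraries. MXD4 was called whichever library was left out, with adjusted p-values of 0.0166 to 0.0388. LOC106049108 was otherwise called only without DM1, MRPL17 only without DM2, MKNK2 only without DM3 and METTL23 only without GM1, while LOC106041719 and LOC106049866 lost the call each time. Of the 7, 2 were thus called without DM1, DM2, DM3 or GM1 and 1 without GM2 or GM3. Transcripts outside the 7 were called in their place, ZRANB2 without DM1, LOC106043767 without DM2, LOC106044615 without DM3, UBE2N and CIB3 without GM1 and LOC106044368 without GM2.

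A further 3 class o transcripts had an adjusted p-value under 0.05 with a change under the fold limit, which made 10 in all, against 3.62% of all lncRNA transcripts. All 3 were lower in DM. MSTRG.22251.3 at COL4A2, a collagen chain of basement membranes, had 1.44, 1.34 and 1.43 FPKM in DM and 3.11, 2.64 and 3.09 FPKM in GM (-0.71 ± 0.15, adjusted p = 0.0429). The COL4A2 gene, with the same locus ID, had 10.1, 9.44 and 9.11 FPKM in DM and 11.1, 11.1 and 11.7 FPKM in GM (-0.22 ± 0.07, limma adjusted p = 0.054). The other 2 were at LOC106043424 (-0.73) and LOC106038467 (-0.69), whose genes were not in the gene table. After scaling to the same median, none of these 3 had a limma adjusted p-value under 0.05. It was then 0.166 for COL4A2, 0.0894 for LOC106043424 and 0.197 for LOC106038467. At an unadjusted p-value under 0.05 there were 60 class o transcripts (28.4%), against 25.8% of all tested.

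Of the 152 genes in pairs, 140 passed the same filter in the gene table. DEGs numbered 4 (2.86%), 3 higher and 1 lower in DM, against 4.02% of 10381 genes, 2.18% higher and 1.84% lower. The median log2 fold change was -0.09 over the 140 genes and -0.03 over all genes tested. Without the fold limit 32 genes (22.9%) had an adjusted p-value under 0.05, against 30.3% of all genes. MXD4 and MKNK2 were DEGs whichever library was left out, while UBE2N was one only without DM2 and LOC106043767 only without GM2. MXD4 and MKNK2 were the DEGs whose class o transcript was also called, in the same direction. All 4 DEGs share the locus ID with their transcript, so the value of the gene draws on the lncRNA. Calls of transcript and gene are then not separate results. The other 2 DEGs had a class o transcript that was not called. UBE2N, a ubiquitin-conjugating enzyme gene, had 3.33, 9.65 and 6.23 FPKM in DM and 14.4, 12.4 and 15.1 FPKM in GM (-1.10 ± 0.31, adjusted p = 0.0429). Its transcript MSTRG.12153.3 had 0.334, 0.766 and 0.909 FPKM in DM and 0.893, 3.50 and 3.59 FPKM in GM (-1.04 ± 0.35, adjusted p = 0.121). LOC106043767, annotated as an uncharacterized protein, had 11.8, 9.62 and 9.93 FPKM in DM and 3.74, 7.71 and 3.22 FPKM in GM (1.03 ± 0.28, adjusted p = 0.0357). Seen from the 7 DE-lncRNAs, 2 had a DEG, 2 had a gene that was tested and not called, 2 had a gene below the filter and 1 had no gene in the table.

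The difference between the change of the lncRNA and that of its gene was then tested itself. For each library the log2(FPKM + 1) of the gene was subtracted from that of the lncRNA, and DM was compared with GM in limma over all 4771 lncRNA and gene pairs of any class with both means at 0.5 FPKM or more. Of the 142 class o pairs tested, 0 were called, and over all 4771 pairs 0.021% were called. The smallest adjusted p-value of a class o pair was 0.113. An unadjusted p-value under 0.05 was found in 23 pairs (16.2%, against 14% of all pairs), 10 of the 93 with the same locus ID and 13 of the 49 with different IDs. The median absolute difference was 0.27 in class o and 0.28 over all pairs, 0.22 with the same ID and 0.32 with different IDs. With its sign, the median difference was -0.08 in class o and -0.14 over all pairs, so differences were not centred on 0. It was -0.03 with the same ID and -0.23 with different IDs. A difference of more than 1 was found in 14 pairs, 10 with the same ID and 4 with different IDs. Differences ran from -3.27 to 2.78 with the same ID and from -1.31 to 1.39 with different IDs. In the 93 pairs with the same ID the value of the gene draws on the lncRNA as well. Their difference is therefore not one between separate measurements. The counts and medians by ID cannot show whether same-ID pairs changed more alike for any reason other than this shared value. Pairs with different IDs overlap in exons as well. Reads in the shared exons fit both, so transcript and gene need not be separate measurements there either.

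The absence of a call does not show that lncRNA and gene changed equally. Where the locus ID is the same, the difference partly compares the lncRNA with itself, so a small difference cannot show this either. The 95% interval of the difference extended by a median of 0.625 to either side, and it reached past 1 in either direction in 71 of the 142 pairs and stayed within 1 in the other 71. For MXD4 the difference was -0.14 (interval -0.55 to 0.28) and for MKNK2 -0.06 (-0.33 to 0.22). For MRPL17 it was 1.14 (0.23 to 2.05, limma adjusted p = 0.291) and for METTL23 -0.82 (-1.74 to 0.09, adjusted p = 0.394). The 1 added also moves the difference away from 0 where transcript and gene changed by the same ratio at different levels. For GAREML the log2 ratio of DM to GM means was -0.80 for the transcript and -0.76 for the gene. The difference on the FPKM + 1 scale was -0.23.

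**Figure D3:**
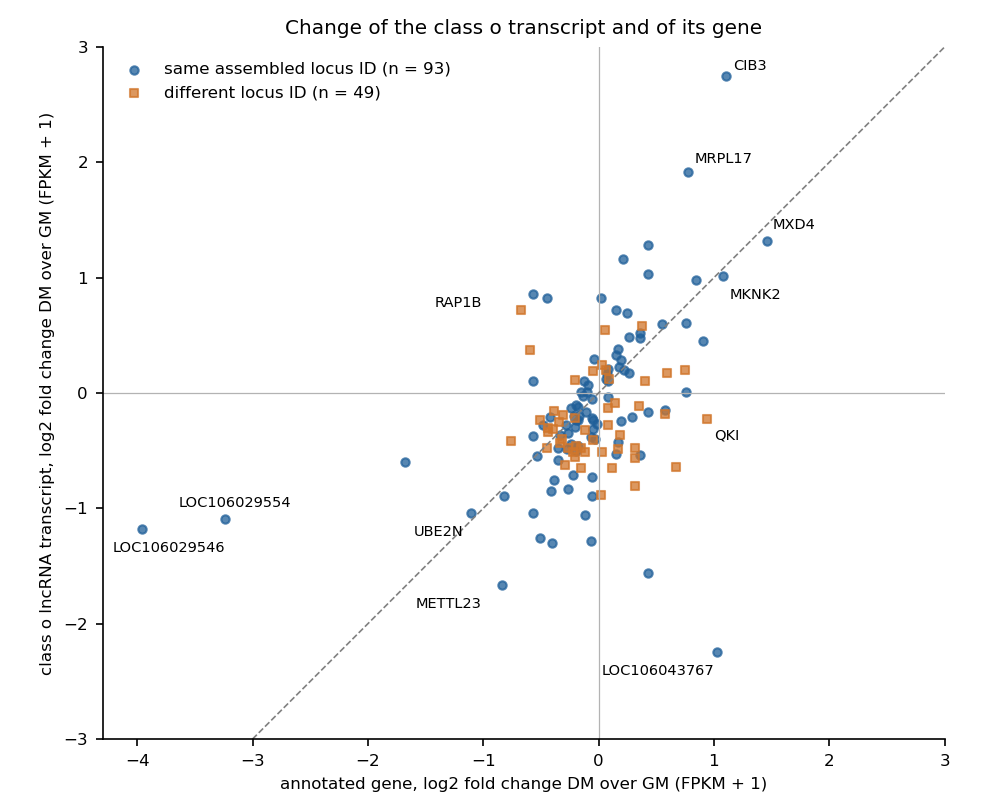
Log2 fold change (DM over GM, FPKM + 1) of the class o lncRNA transcript (vertical) against that of its gene (horizontal) for the 142 tested pairs, 93 with the same assembled locus ID (circles) and 49 with different IDs (squares). Pairs on the dashed line had equal changes on the FPKM + 1 scale, on which equal fold changes at different levels fall off it. RAP1B, QKI and LOC106043767 lie far from the line.

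The pair with the smallest p-value was RAP1B, a Ras-family GTPase gene that acts in integrin adhesion. The transcript MSTRG.2261.1 (1521 bases in 2 exons, NW_013185658.1:7063994-7132473, minus strand, locus ID other than that of the gene) had 7.03, 5.12 and 5.52 FPKM in DM and 3.46, 2.72 and 3.30 FPKM in GM. The RAP1B gene had 11.6, 11.2 and 10.4 FPKM in DM and 18.2, 19.1 and 17.4 FPKM in GM. Neither overlapped between stages, and they lay in opposite directions. The log2 fold change of the transcript was 0.72 ± 0.17 (limma adjusted p = 0.0557), and after scaling to the same median it was 1.08 and called (adjusted p = 0.0149). That of the gene was -0.67 ± 0.07 (adjusted p = 0.00151). The difference of 1.39 (interval 0.94 to 1.85) had an adjusted p of 0.113. It was called over pairs with means of at least 2 FPKM (adjusted p = 0.0388) and after quantile normalization (1.59, adjusted p = 0.0494). Under the other alternatives, such as no filter, a pseudocount of 0.1, the median difference subtracted and each library left out, it was not called.

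QKI encodes an RNA-binding protein that controls splicing in muscle and glia. Its transcript MSTRG.15588.1 (3567 bases across 201289 bases, different locus ID) had 5.21, 3.30 and 2.49 FPKM in DM and 5.58, 3.90 and 3.60 FPKM in GM, with overlap. The QKI gene had 14.7, 10.1 and 8.92 FPKM in DM and 7.10, 5.78 and 3.46 FPKM in GM, with no overlap (0.94 ± 0.27, adjusted p = 0.0426). The difference was -1.16 (interval -1.61 to -0.71, adjusted p = 0.123), and with means of at least 2 FPKM its adjusted p was 0.0495. This difference was not called under the other alternatives, and it was -1.03 with the median difference subtracted. CACNA2D1, an auxiliary subunit gene of calcium channels, had a difference of -0.88 (limma adjusted p = 0.331), and of -0.75 with the median difference subtracted. Its transcript had 2.07, 1.10 and 0.883 FPKM in DM and 3.27, 2.26 and 1.83 FPKM in GM.

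The pair of LOC106043767 had the most negative difference, -3.27 (interval -4.78 to -1.76, adjusted p = 0.165). Its transcript MSTRG.21381.1, at the same locus as the gene, was listed at 0 in DM1 and DM3 and had 3.28 FPKM in DM2, against 5.39, 11.5 and 4.67 FPKM in GM, whereas the gene was above its GM values in all DM libraries. Without DM2 the difference was -4.02 and was called (adjusted p = 0.0149). Transcript and gene lay without overlap in opposite directions in 4 of the 28 pairs in which both had groups without overlap (14.3%, against 11.5% of all such pairs). The 28 were 19.7% of the class o pairs tested, against 17.4% of all pairs. They were RAP1B, LOC106043767, the sugar phosphate exchanger gene SLC37A1 (difference -0.55) and the transcript MSTRG.23870.2 of LOC106045648 (-0.59).

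**Figure D4:**
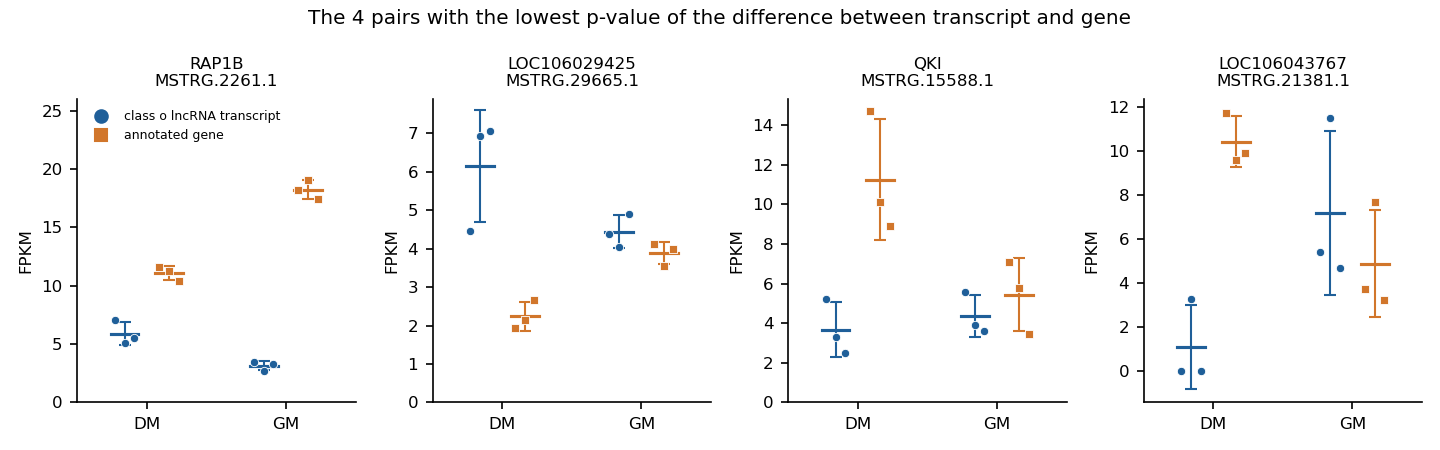
FPKM of the class o transcript (circles) and of the gene (squares) in the DM and GM libraries for the 4 pairs with the smallest p-value of the difference, with lines for the mean and bars for the SD of 3 libraries. For RAP1B the transcript is higher in DM and the gene lower, with no overlap between stages in either.

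At 28 genes more than 1 class o transcript was assembled, 78 transcripts in all, and their levels shifted between libraries. Transcripts of a gene can share sequence, so the split of the reads among them is uncertain. The sum over the transcripts of a gene varied less between libraries than the median transcript did in 26 of the 28 genes, with a median coefficient of variation of 52.9% for sums and 84.8% for transcripts. A sum tends to vary less than its parts also where these vary independently. The comparison therefore cannot show whether reads moved between transcripts. TSN, which encodes the nucleic acid-binding protein translin, had 4, of which 3 had the same start, end and length of 750 bases. MSTRG.2790.2 was listed at 0 in DM1 and had 0.436 FPKM in DM2 and 10.02 FPKM in DM3, against 10.6 and 10.8 FPKM in GM1 and GM2 and 0 in GM3. The TSN sum was 14.4, 21.8 and 27.4 FPKM in DM and 25.8, 28.4 and 22.1 FPKM in GM, and the transcript came and went within each stage.

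LOC106045648, named UQCR11 in RefSeq, encodes a subunit of respiratory complex III and had 4 class o transcripts. MSTRG.23870.1, among the 5 highest class o transcripts by mean, had 41.9, 42.9 and 59.0 FPKM in DM and 32.9, 9.17 and 37.7 FPKM in GM. The DM values were above the GM values (1.03 ± 0.47, adjusted p = 0.211). In GM2, where it was low, MSTRG.23870.4 had 24.1 FPKM, and that transcript was at 0.0345 FPKM or less in the other 5 libraries. The sum over the 4 was 47.7, 63.4 and 65.7 FPKM in DM and 40.3, 40.7 and 45.1 FPKM in GM. MRPS25, of the small subunit of the mitochondrial ribosome, had 5, with sums of 12.3, 9.08 and 8.29 FPKM in DM and 8.85, 8.62 and 7.82 FPKM in GM. When the class o transcripts of a locus were summed before the test, 8 of 181 class o loci tested were called. Over all 12958 rows then tested 267 were called. LOC106033930 was added to the 7 above (-1.39, limma adjusted p = 0.0396). Its 5 transcripts summed to 1.93, 0.941 and 1.39 FPKM in DM and 3.23, 6.04 and 7.31 FPKM in GM.

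**Figure D5:**
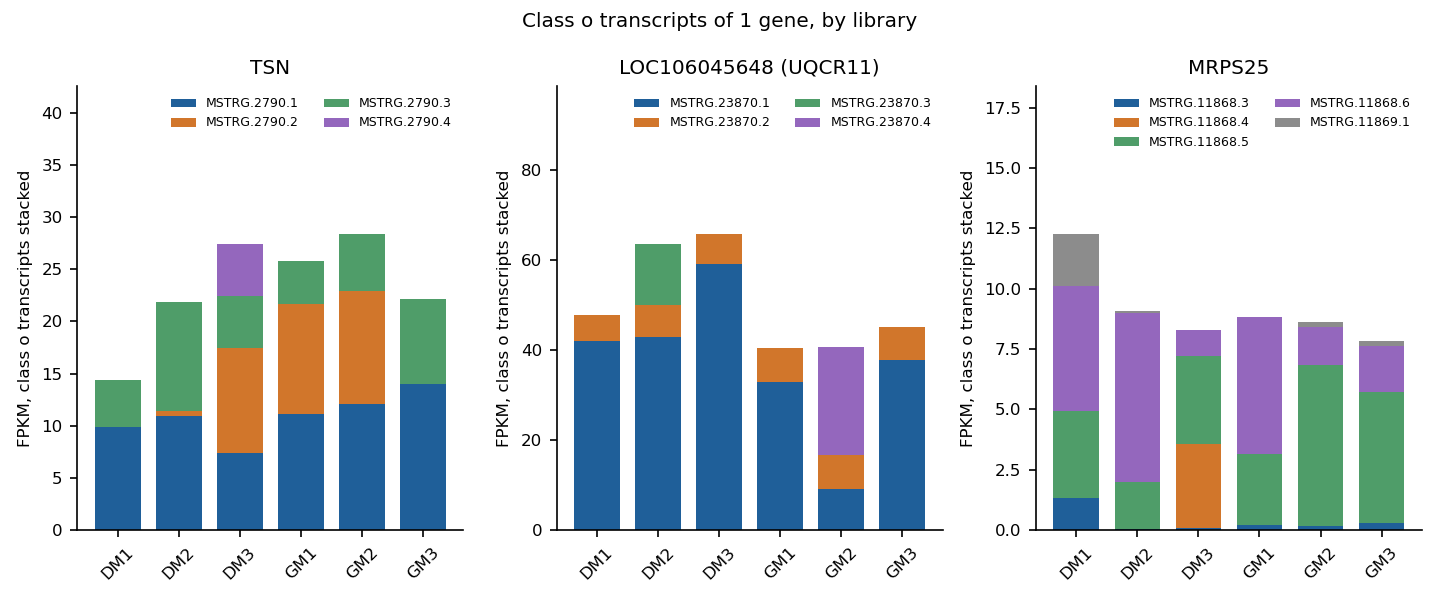
FPKM of the class o transcripts of TSN, LOC106045648 (UQCR11) and MRPS25 stacked by library, DM left of GM. MSTRG.23870.4 fills GM2 where MSTRG.23870.1 is low, and MSTRG.2790.2 is high in DM3, GM1 and GM2 and low in DM2.

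Grouped by what their genes are known to do, a grouping made after the values were seen, class o transcripts were called in 3 of 6 groups. Over all lncRNA transcripts 2.01% were called, and the groups held 7 to 15 tested transcripts, too few for these counts to tell them apart. At 8 genes of mitochondrial proteins 12 transcripts were tested and 1 was called, with a median log2 fold change of -0.15. At 18 genes of transcription factors and chromatin 14 were tested, 1 was called higher and 1 lower, and the median was -0.26. At 12 genes of RNA processing and translation 15 were tested and 1 was called, with a median of -0.22. None of the transcripts at genes of small GTPases and their regulators (0 of 11 tested, median 0.34), membrane transport (0 of 7, median -0.25) or secreted proteins, matrix and receptors (0 of 9, median -0.09) was called. At an unadjusted p-value under 0.05 the 6 groups held 2, 5, 4, 3, 3 and 2 transcripts in the order given here, against 25.8% of all tested. RASL11B, a Ras-like GTPase gene, had a transcript with 12.4, 9.43 and 11.7 FPKM in DM and 8.89, 8.29 and 4.82 FPKM in GM (0.58 ± 0.23, adjusted p = 0.165).

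None of the genes listed for the sarcomere, for myogenic regulators and fusion, for the cell cycle or for signalling had a class o transcript, though 11 of 48 sarcomere genes tested as genes were called higher and 2 lower in DM. The calcium handling list held CACNA2D1, the extracellular matrix list held COL4A2, and the RNA splicing list held QKI and TRA2B. The 2 transcripts of TRA2B, a splicing regulator, were above 0 in GM1 only, at 1.14 and 0.708 FPKM, and were below the filter. CXCR5, a chemokine receptor gene of lymphocytes, had a transcript with 29.8 FPKM in DM1, 6.08 and 5.96 FPKM in DM2 and DM3 and 4.53 to 5.10 FPKM in GM. CIB3, a calcium- and integrin-binding gene, had the most positive class o change, 2.75 ± 1.01 (adjusted p = 0.144). Its transcript had 19.8, 21.96 and 10.2 FPKM in DM, against 16.5 FPKM in GM1, 0.000465 FPKM in GM3 and a listed 0 in GM2, so GM1 overlapped DM and the other GM libraries did not.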

How the data were processed

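Total RNA of 3 DM and 3 GM cultures was depleted of ribosomal RNA, made into stranded libraries and sequenced in read pairs. Per the methods and the submitters' processing notes, the authors used Cutadapt for trimming, aligned reads to a goose assembly (the methods name Bowtie2 and the assembly GooseV1.0, the notes HISAT2 and TopHat), assembled transcripts with StringTie, merged them with gffcompare and screened lncRNAs for coding potential. The deposited FPKM of genes and lncRNA transcripts were estimated by the authors with StringTie and Ballgown. The tables also hold the fold changes and p-values of the authors' own comparison by edgeR, which were not used. The number of per-sample columns left unused was 0. Read totals stated by the study were not used here, and the tables hold no counts, so no counting error was computed and the depth behind a single value is unknown.

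Class o rows were taken, and genes were joined by name. limma 3.58.1 in R 4.3.3 (lmFit, eBayes with a trend) was run on log2(FPKM + 1) over all rows at a mean level of 0.5 FPKM or above, with Benjamini-Hochberg adjustment, after a test on simulated data. The pseudocount means that fold changes of low transcripts are understated, and that the difference of a pair depends also on the levels of transcript and gene. The plan foresaw a count test for counts and limma for FPKM. Python 3.11.15 with pandas 2.3.3, numpy 2.4.6, matplotlib 3.10.9 and scipy 1.17.1 made the summaries and figures. RefSeq names came from another assembly, and none of its coordinates were used. Sequences were not used here.

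The members and gene lists were chosen with earlier results of these data known. The text names every called transcript, the 5 with the highest mean, up to 3 for each gene list and their genes, except for 1 transcript that is not reported here. Other genes were named after their values were seen, as the smallest p-values of a pair, changes without overlap, genes with several transcripts or libraries that stood apart. Alternatives were no filter, a filter at a mean of 2 FPKM, a pseudocount of 0.1, quantile normalization, libraries scaled to the same median (for pairs, the median difference subtracted), no fold limit, transcripts summed over a locus or gene, each library left out, and the replicate number as a block.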

Additional observations from a re-analysis of the deposited data

How the results depend on the processing

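Over all lncRNA transcripts 261 of 12988 were called, 118 of 2082 under a filter at 2 FPKM and 67 to 232 when a library was left out. The 7 class o DE-lncRNAs of 211 tested became 3 of 85 under that filter. With a library left out 1 to 4 class o transcripts were called, 1 to 2 of them among the 7. The 4 DEGs among their genes became 32 without the fold limit, while 2 to 5 were called when a library was left out, 2 to 3 of them among the 4, and the 2 DE-lncRNAs with a DEG became 4 without the fold limit and 1 to 2 when a library was left out. The 0 class o pairs called of 142 became 2 of 59 under a filter at 2 FPKM, against 7 of 996 pairs of any class. With quantile normalization 1 was called, against 6 of 4771. When a library was left out 0 to 1 were called, against 0 to 3 of any class. Without DM replicate 2 the called pair was LOC106043767. Under the filter at 2 FPKM the transcripts of MXD4, MKNK2 and METTL23 kept their call. The rest of the 7 had means of 0.765 to 1.54 FPKM, so that filter left them out of the test. The cause of the other shifts was not tested. When 1 library is left out the fit also rests on fewer libraries, which was not told apart from the absence of that library. At a pseudocount of 0.1 there were again 7 DE-lncRNAs, with COL4A2 in place of LOC106041719, while over all lncRNA transcripts 290 of 12988 were called. With the replicate number as a block, 1 DE-lncRNA (MXD4, adjusted p = 0.0399), 2 DEGs and 1 DE-lncRNA with a DEG were called, and 0 pairs. Over all lncRNA transcripts the block moved the calls to 72, against 261. Deviations of libraries with the same number correlated by 0.03 to 0.09 over lncRNAs and -0.0024 to 0.03 over genes. Between different numbers these correlations were -0.09 to 0.04 over lncRNAs and -0.06 to 0.05 over genes. As all were small, the numbers were not taken to pair the libraries. For transcripts, genes and pairs named by the rule, 354 alternative values kept their side of the threshold, 42 lost a call and 4 gained one. The 42 were all values of class o DE-lncRNAs, with none of MXD4, while the 354 include values that were not called to begin with. Of the called values 0 changed sign. Without counts, the precision of low values in a single library could not be given.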
